A study of Mus musculus with 36 samples.

Results

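The transcripts of the mouse mitochondrial genome were followed in kidneys of cadmium-treated mice. The members are all genes that the count files place on chromosome MT, 37 of the 55536 genes counted: 13 mRNAs, 2 rRNAs and 22 tRNAs. The series holds 36 bulk RNA-seq libraries of kidney, 6 in each of 6 groups. Of these, 3 groups were ob/ob mice, which lack functional leptin and become obese, labelled ob here, and the others were normal C57BL/6 mice, labelled b6j. Within each genotype 1 group is labelled untreated, 1 received cadmium chloride (CdCl2) at 0.5 mg/kg and 1 received it at 2 mg/kg. The strain label reads C57BL/6 in every library, ob/ob included. The labels used here give no route, duration, age or sex, and nothing says how each replicate was taken, so p-values measure the spread between these libraries.

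Mammalian mitochondrial DNA is a small circle transcribed from both strands into long RNAs by the polymerase POLRMT with the factors TFAM and TFB2M. Most tRNA genes lie between the mRNAs and rRNAs, and cutting them out frees the messages, which then gain short poly(A) tails. The mRNAs encode core subunits of complexes I, III and IV of the respiratory chain and of ATP synthase (complex V), and the rRNAs and tRNAs serve the ribosomes that translate them, while all other mitochondrial proteins come from nuclear genes. Proximal tubule cells are rich in mitochondria and are the main site of cadmium uptake in the kidney.

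The members lie close together on the circle, and this sets which reads can be assigned to them. On chromosome MT of GRCm38, the rRNA genes mt-Rnr1 and mt-Rnr2 span bases 70 to 1024 and 1094 to 2675, mt-Nd1 2751 to 3707, mt-Nd2 3914 to 4951, mt-Co1 5328 to 6872 and mt-Co2 7013 to 7696. They are followed by mt-Atp8 from 7766 to 7969, mt-Atp6 from 7927 to 8607, mt-Co3 from 8607 to 9390, mt-Nd3 from 9459 to 9806, mt-Nd4l from 9877 to 10173, mt-Nd4 from 10167 to 11544 and mt-Nd5 from 11742 to 13565. On the opposite strand mt-Nd6 spans 13552 to 14070, and mt-Cytb closes the mRNAs from 14145 to 15288. In total 9 members, mt-Nd6 and 8 tRNAs, are annotated on the minus strand. The mRNAs have 204 (mt-Atp8) to 1824 (mt-Nd5) bases and a GC content of 31.9% to 41.1%. Of their 13 start codons 9 are ATG, and mt-Co3, mt-Nd4 and mt-Cytb end on a single T of an unfinished stop codon, which the poly(A) tail completes.

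The following 4 sets of sequences show what the counts can and cannot separate. The last 90 bases of mt-Atp8 (bases 7880 to 7969, plus strand) and the first 90 of mt-Atp6 (7927 to 8016, plus strand) share 43 bases, printed in capitals, which hold the end of one reading frame and the start of the next. The first 90 bases of mt-Nd3 (9459 to 9548, plus strand) are shown beside its nuclear copy Gm28438, an annotated pseudogene at 24612775 to 24613119 of chromosome 1, minus strand, with the only differing base in capitals. Bases 1063 to 1152 of mt-Co1 (6390 to 6479, plus strand) are shown beside Gm29216 at 24615706 to 24616197 of chromosome 1, minus strand, in the same way. The proline tRNA gene mt-Tp (15356 to 15422, minus strand) is shown whole, as the only tRNA with enough reads to test. All were read from the GENCODE transcripts of GRCm38.
mt-Atp8: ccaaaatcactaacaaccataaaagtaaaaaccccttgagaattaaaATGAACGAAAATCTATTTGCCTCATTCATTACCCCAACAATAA
mt-Atp6: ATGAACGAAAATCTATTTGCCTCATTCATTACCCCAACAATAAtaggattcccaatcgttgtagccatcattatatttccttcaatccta
mt-Nd3: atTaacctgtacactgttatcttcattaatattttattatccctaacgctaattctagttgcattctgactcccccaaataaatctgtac
Gm28438: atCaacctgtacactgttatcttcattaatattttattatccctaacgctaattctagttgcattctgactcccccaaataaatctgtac
mt-Co1: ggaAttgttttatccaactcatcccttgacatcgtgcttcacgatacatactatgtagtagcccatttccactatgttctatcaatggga
Gm29216: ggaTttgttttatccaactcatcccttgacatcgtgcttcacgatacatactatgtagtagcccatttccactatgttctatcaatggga
mt-Tp: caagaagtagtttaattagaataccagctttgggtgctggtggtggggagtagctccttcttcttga
Counted from base 1 of each mitochondrial gene, the differences are T3C between mt-Nd3 and Gm28438 and A1066T between mt-Co1 and Gm29216. They are the only mismatches in 345 and 483 aligned bases.

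Libraries held 26783936 to 37244058 counted reads, so 3 counts are worth 0.0851 to 0.112 CPM (counts scaled to a common library size, with a correction for composition). All 10 proximal tubule markers were counted in every library. One library stands apart: ob replicate 5 at 2 mg/kg had a summed proximal tubule marker level of 2039 CPM against 13863 to 58409 CPM in the other 35. Its blood markers summed to 4.80 CPM against at least 112 CPM, and its perirenal fat markers to 148 CPM against at most 57.2 CPM. It was also below the other 35 for markers of thick ascending limb (1093 against at least 2900 CPM) and distal convoluted tubule (119 against at least 1113 CPM). The same held for collecting duct (210 against at least 320 CPM) and endothelial markers (130 against at least 175 CPM). Its podocyte, macrophage and T cell, and brown fat sums lay within the range of the others. Since all libraries share 1 estimate of spread, leaving it out also changes calls between other groups, and values that move with it are also given without it. In bulk RNA, fewer cells of a type and less RNA per cell cannot be told apart. Summed proximal tubule markers ranged from 45758 to 58409 CPM in untreated b6j kidneys, 45648 to 55831 CPM in b6j at 0.5 mg/kg and 23937 to 36043 CPM in b6j at 2 mg/kg. The range was 25750 to 35656 CPM in untreated ob, 27114 to 36438 CPM in ob at 0.5 mg/kg, and 13863 to 22361 CPM in ob at 2 mg/kg without replicate 5. Of the 10 markers Kap had the highest median count, 416696.5 reads per library, so the sums weigh it most. In b6j at 2 mg/kg 3 of the 10 markers were called lower, where 11.4% of all genes were. In ob at 2 mg/kg 5 were, where 18.0% of all genes were called lower. Without replicate 5 it was 6, where 38.0% of all genes were called in either direction. Distal convoluted tubule sums also fell, from 1517 to 2007 CPM untreated to 1113 to 1417 CPM at 2 mg/kg in b6j. In ob they were 1837 to 2189 CPM untreated and 1113 to 1326 CPM at 2 mg/kg without replicate 5. Thick ascending limb, podocyte and endothelial sums in those ob libraries lay below all untreated ones, and sums of the remaining cell types overlapped. In b6j the remaining sums overlapped. The part of these markers in the results below was not tested.

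Mitochondrial transcripts took a larger median share of all counted reads at either cadmium dose than without treatment, in both genotypes. The share is a description, with no test. In untreated b6j kidneys the share was 7.18% at its lowest, 7.75% at the median and 8.48% at its highest. It was 7.21%, 8.50% and 9.40% in b6j at 0.5 mg/kg, and 8.77%, 9.33% and 9.63% in b6j at 2 mg/kg. All 6 b6j libraries at 2 mg/kg lay above all 6 untreated b6j libraries, while those at 0.5 mg/kg overlapped both groups. In ob kidneys the share was 7.25%, 7.64% and 9.08% without treatment, and 8.78%, 9.65% and 10.23% at 0.5 mg/kg. At 2 mg/kg it was 5.99%, 10.59% and 11.25%, where the lowest value is replicate 5. Without it the group ranged from 9.16% to 11.25%, above all untreated ob libraries, of which replicate 4 at 9.08% was the highest. The rRNAs made up 0.0885% to 0.211% of all reads, or 1.18 to 2.60 reads per 100 mitochondrial mRNA reads, so the share is almost wholly mRNA.

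The deposited data give 1 technical split that touches this share. In a joined table of counts that accompanies the libraries, 12 columns hold only 16.5% to 33.8% of the reads in the library's own file. Of these 12 libraries 11 are b6j and 1 is ob (replicate 3 at 2 mg/kg). Reads beyond the joined column had a mitochondrial share higher by 0.181 to 0.447 percentage points in 12 of 12 libraries. Among b6j libraries with such a column the share was 7.58% to 8.48% untreated (n = 4) and 8.77% to 9.44% at 2 mg/kg (n = 3), and among the others 7.18% to 7.69% (n = 2) and 8.97% to 9.63% (n = 3). The untreated and 2 mg/kg b6j groups did not overlap within either set. At 0.5 mg/kg the share was 8.46% to 9.40% with such a column (n = 4) and 7.21% to 8.37% among the others (n = 2). It overlapped the untreated group in both sets. The part of this split in the shares was not tested.

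**Figure D1:**
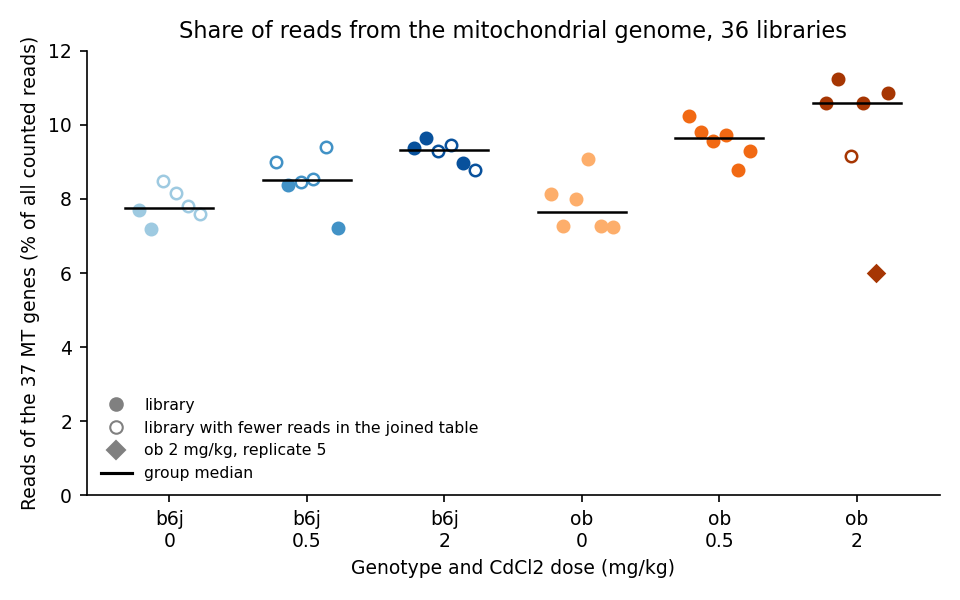
Share of all counted reads on chromosome MT in percent (vertical axis) for each of the 36 libraries (points) by group, with the group median (line). In b6j the 2 mg/kg libraries (8.77% to 9.63%) lie above the untreated ones (7.18% to 8.48%), and ob replicate 5 at 2 mg/kg lies at 5.99%, below every other library.

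Counted levels differed widely between the mRNAs. On the scale of CPM per kb of gene, untreated b6j kidneys had 20040 ± 1016 (SD, n = 6) for mt-Co1, a catalytic subunit of complex IV, and 14959 ± 879 for mt-Cytb, the complex III subunit. The complex I genes mt-Nd1, mt-Nd2, mt-Nd4 and mt-Nd5 followed at 9764 ± 791, 6925 ± 734, 5425 ± 324 and 3946 ± 458 CPM per kb. The only minus-strand mRNA, mt-Nd6, stood at 2320 ± 549. Well below these came mt-Co2 at 111 ± 15.8, mt-Co3 at 90.8 ± 11.4 and mt-Atp6 at 75.9 ± 14.5, then mt-Nd3 at 31.3 ± 5.40, mt-Nd4l at 26.4 ± 3.90 and mt-Atp8 at 1.27 ± 0.526 CPM per kb. Neighbours in this order were separated by more than their SDs down to mt-Nd6, whereas mt-Co2 and mt-Co3, mt-Co3 and mt-Atp6, and mt-Nd3 and mt-Nd4l lay within the sum of their SDs.

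Of the 6 lowest mRNAs 5 lie almost wholly within near-identical copies in the nuclear genome. A search of annotated transcripts found 17 nuclear copies of at least 90% identity over at least 100 bases, for 11 of the 13 mRNAs, and 7 of them lie on chromosome 1. Of all stretches of 100 bases, 0.513% in mt-Co2, 0.515% in mt-Atp6, 0.146% in mt-Co3, 2.41% in mt-Nd3 and 1.52% in mt-Nd4l occur in no annotated copy. This share was 39.2% for mt-Nd4, 69.2% for mt-Co1, 96.8% for mt-Nd2 and 100% for mt-Nd1, mt-Nd5, mt-Nd6 and mt-Cytb. The counter's default settings leave out reads that align equally well to several places and reads that overlap several genes. Levels of mt-Co2, mt-Atp6, mt-Co3, mt-Nd3 and mt-Nd4l thus rest on the reads that could be placed, and how far this sets their height relative to other genes was not tested. mt-Atp8 has no annotated copy, but 43 of its 204 bases are shared with mt-Atp6, and the annotated chromosome 1 copies Gm28661 (of mt-Co2) and Gm10925 (of mt-Atp6) leave an unannotated gap of 233 bases between them.

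The copies themselves carried counts. Of the copies 9 had a mean above 100 reads per library. Gm28661, identical to mt-Co2 over 681 bases, had a mean of 1950 reads where mt-Co2 had 2417. Gm10925 had 1741 where mt-Atp6 had 1794, and Gm28437 had 1486 where mt-Co3 had 2104. Gm10222 had 207 where mt-Nd4l had 287, and Gm28438 had 161 where mt-Nd3 had 402. So for these 5 genes the count of the copy was of the same order as that of the mitochondrial gene. For the abundant genes it was far below: Gm29216 (1006 reads) and Gm13340 (291 reads) compare with a mean of 995588 for mt-Co1, and Gm28439 (454 reads) with 239356 for mt-Nd4. Gm13341, a copy of mt-Co2 on chromosome 2, had 152. Counts of all copies summed to 0.0111% to 0.0348% of all reads.

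**Figure D2:**
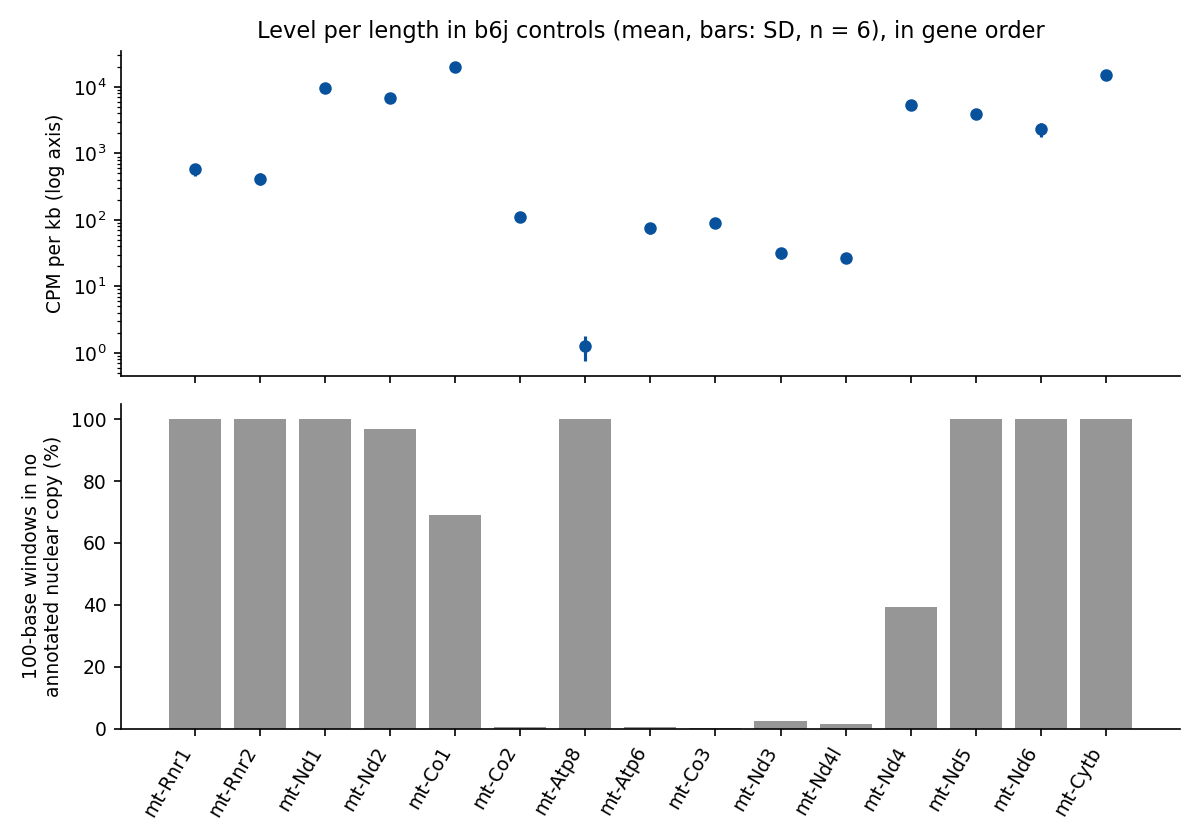
Mean level of 15 mitochondrial genes in untreated b6j kidneys (CPM per kb, log axis, gene order along chromosome MT) above the percent of each gene's 100-base stretches found in no annotated nuclear copy. The genes near 0% (mt-Co2, mt-Atp6, mt-Co3, mt-Nd3 and mt-Nd4l) lie at 26.4 to 111 CPM per kb, and mt-Co1, mt-Cytb, mt-Nd1 and mt-Nd2 at 6925 or more.

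In ob kidneys the calls at both cadmium doses were led by complex I messages. At 0.5 mg/kg mt-Nd1, mt-Nd2 and mt-Nd3, all subunits of the proton-pumping membrane arm of complex I, rose, and at 2 mg/kg these and mt-Nd4l, mt-Co2, mt-Atp6 and mt-Rnr1 rose. mt-Co1, the most abundant message, did not pass the test at either dose. No member was called lower at either dose in ob kidneys with all libraries and all groups in the model.

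mt-Nd1 had 7229, 7870 and 9377 CPM (lowest, median and highest library) in untreated ob kidneys, 11447, 12845 and 14056 CPM at 0.5 mg/kg, and 9424, 14492 and 16065 CPM at 2 mg/kg. The untreated libraries overlapped neither dose, even with replicate 5 of the 2 mg/kg group, its lowest. The log2 change was 0.67 ± 0.09 (SE; edgeR quasi-likelihood test, Benjamini-Hochberg adjusted p = 2.12e-06) at 0.5 mg/kg and 0.77 ± 0.09 (adjusted p = 3.03e-08) at 2 mg/kg, where it was 0.86 without replicate 5. mt-Nd2 had 4792, 5204 and 6175 CPM untreated, 8409, 9541 and 10581 CPM at 0.5 mg/kg, and 3240, 10975 and 12808 CPM at 2 mg/kg. All treated libraries lay above the untreated ones apart from replicate 5, which at 3240 CPM was below all of them. Its log2 change was 0.84 ± 0.16 (edgeR adjusted p = 0.000751) at 0.5 mg/kg and 0.87 ± 0.16 (adjusted p = 5.74e-05) at 2 mg/kg, and 1.06 at 2 mg/kg without replicate 5.

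mt-Nd3 had 7.16, 7.84 and 11.7 CPM untreated, 12.3, 14.8 and 16.9 CPM at 0.5 mg/kg, and 2.80, 17.9 and 24.1 CPM at 2 mg/kg. It was again low in replicate 5, and the other treated libraries did not overlap the untreated ones. The log2 change was 0.80 ± 0.24 (edgeR adjusted p = 0.0476) at 0.5 mg/kg and 0.93 ± 0.24 (adjusted p = 0.00209) at 2 mg/kg, or 1.16 without replicate 5. The first of these calls is at the edge of the threshold: it was lost in 32 of 36 refits that each left out 1 library, and it was kept without untreated ob replicate 4 (adjusted p = 0.0371), b6j replicate 6 at 0.5 mg/kg, or ob replicates 2 or 5 at 2 mg/kg. mt-Nd4l, another small membrane subunit, had 4.99, 5.96 and 9.86 CPM untreated, 7.79, 9.39 and 12.1 CPM at 0.5 mg/kg, and 2.74, 13.6 and 14.9 CPM at 2 mg/kg, with a log2 change of 0.49 ± 0.24 (edgeR adjusted p = 0.31) and 0.78 ± 0.24 (adjusted p = 0.0083), the latter 1.00 without replicate 5.

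The remaining complex I subunits did not pass the test with all libraries. mt-Nd4, which lies in the same membrane arm, had 6081, 6420 and 7361 CPM untreated and 8053, 8850 and 9401 CPM at 0.5 mg/kg, without overlap, but its log2 change of 0.44 ± 0.14 had an edgeR adjusted p of 0.0816. At 2 mg/kg it had 3018, 8204 and 9340 CPM and a log2 change of 0.20 ± 0.14 (adjusted p = 0.285). mt-Nd5 had 5143, 6280 and 7049 CPM untreated, 6741, 8000 and 8493 CPM at 0.5 mg/kg and 3805, 7968 and 8765 CPM at 2 mg/kg, and mt-Nd6 had 860, 976 and 1562, then 1119, 1355 and 1751, then 740, 1258 and 1436 CPM. Untreated and treated ob libraries overlapped for both, for mt-Nd5 at 2 mg/kg through replicate 5 alone (next 7626 CPM). Without replicate 5, mt-Nd4 and mt-Nd5 were called higher at both doses, with log2 changes of 0.37 and 0.42 at 2 mg/kg, and mt-Nd6 at 0.5 mg/kg alone.

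Complexes III and IV showed unequal changes. mt-Cytb, the heme-bearing core of complex III, had 14280, 15583 and 17390 CPM untreated, 18640, 21144 and 22102 CPM at 0.5 mg/kg, and 8547, 21004 and 23233 CPM at 2 mg/kg. Apart from replicate 5 the treated libraries lay above the untreated ones, yet the log2 changes of 0.41 ± 0.13 (edgeR adjusted p = 0.052) and 0.29 ± 0.13 (adjusted p = 0.0621) missed the threshold, and without that library 0.45 at 2 mg/kg passed it (adjusted p = 1.86e-07). mt-Co1 had 27794, 29726 and 35141 CPM untreated, 31401, 35495 and 36755 CPM at 0.5 mg/kg, and 27322, 32998 and 36749 CPM at 2 mg/kg, overlapping throughout, with log2 changes of 0.19 ± 0.07 (edgeR adjusted p = 0.171) and 0.07 ± 0.07 (adjusted p = 0.499), the latter 0.11 without replicate 5. mt-Co2 had 38.4, 46.3 and 89.2 CPM untreated, 63.5, 85.7 and 102 CPM at 0.5 mg/kg, and 36.3, 91.8 and 120 CPM at 2 mg/kg. Its log2 change was 0.59 ± 0.19 (edgeR adjusted p = 0.0699) and then 0.63 ± 0.19 (adjusted p = 0.00812), or 0.79 without replicate 5. The highest untreated value, 89.2 CPM in replicate 4, overlapped both doses. mt-Co3 had 39.4, 47.1 and 88.2 CPM untreated and 26.5, 68.3 and 89.0 CPM at 2 mg/kg, and was not called at either dose (log2 change 0.18 ± 0.19 at 2 mg/kg, and 0.34 with an adjusted p of 0.0893 without replicate 5).

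Of the ATP synthase subunits, mt-Atp6, part of the proton channel, had 26.8, 33.8 and 69.0 CPM untreated, 45.5, 61.5 and 72.8 CPM at 0.5 mg/kg, and 22.7, 72.5 and 92.9 CPM at 2 mg/kg. Its log2 change was 0.55 ± 0.22 (edgeR adjusted p = 0.192) and 0.71 ± 0.22 (adjusted p = 0.012), or 0.89 at 2 mg/kg without replicate 5. mt-Atp8 stayed between 0.226 and 0.556 CPM in all ob libraries but 1 at 0.172 CPM, a few reads above the level of 3 counts, and was not called (0.64 ± 0.30 at 2 mg/kg, edgeR adjusted p = 0.0927, and 0.77 with 0.0538 without replicate 5). The nuclear copies are given beside their genes: at 2 mg/kg Gm28661 (of mt-Co2) was called higher by a log2 change of 0.61 ± 0.18, Gm10925 (of mt-Atp6) by 0.75 ± 0.23 and Gm10222 (of mt-Nd4l) by 0.78 ± 0.25. Gm28438 (of mt-Nd3) was called higher (edgeR adjusted p = 0.0014, with a log2 change of 1.44 ± 0.22 without replicate 5), and Gm28439 (of mt-Nd4) by a log2 change of 0.65 ± 0.25 (adjusted p = 0.0361), where mt-Nd4 itself was not called. The other copies with a mean above 100 reads were not called at 2 mg/kg. Gm28437 (of mt-Co3) had 0.11 ± 0.20, and Gm13340 and Gm29216 (of mt-Co1) had 0.17 ± 0.14 and 0.15 ± 0.19. Gm13341 (of mt-Co2) had 0.41 ± 0.18 (edgeR adjusted p = 0.0767), and was called without replicate 5 (adjusted p = 0.00106). At 0.5 mg/kg Gm28661 alone of the copies was called higher, by 0.62 ± 0.18 (edgeR adjusted p = 0.0374), where mt-Co2 was not. With each copy's reads added to its mitochondrial gene, the 3 calls at 0.5 mg/kg and the 7 at 2 mg/kg were kept, and mt-Nd3 had a log2 change of 0.83 and 1.01. In that fit mt-Co2 was also called higher at 0.5 mg/kg, which made 4 calls. The fit called 780 of 18168 genes at 0.5 mg/kg and 38.4% of all genes at 2 mg/kg.

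**Figure D3:**
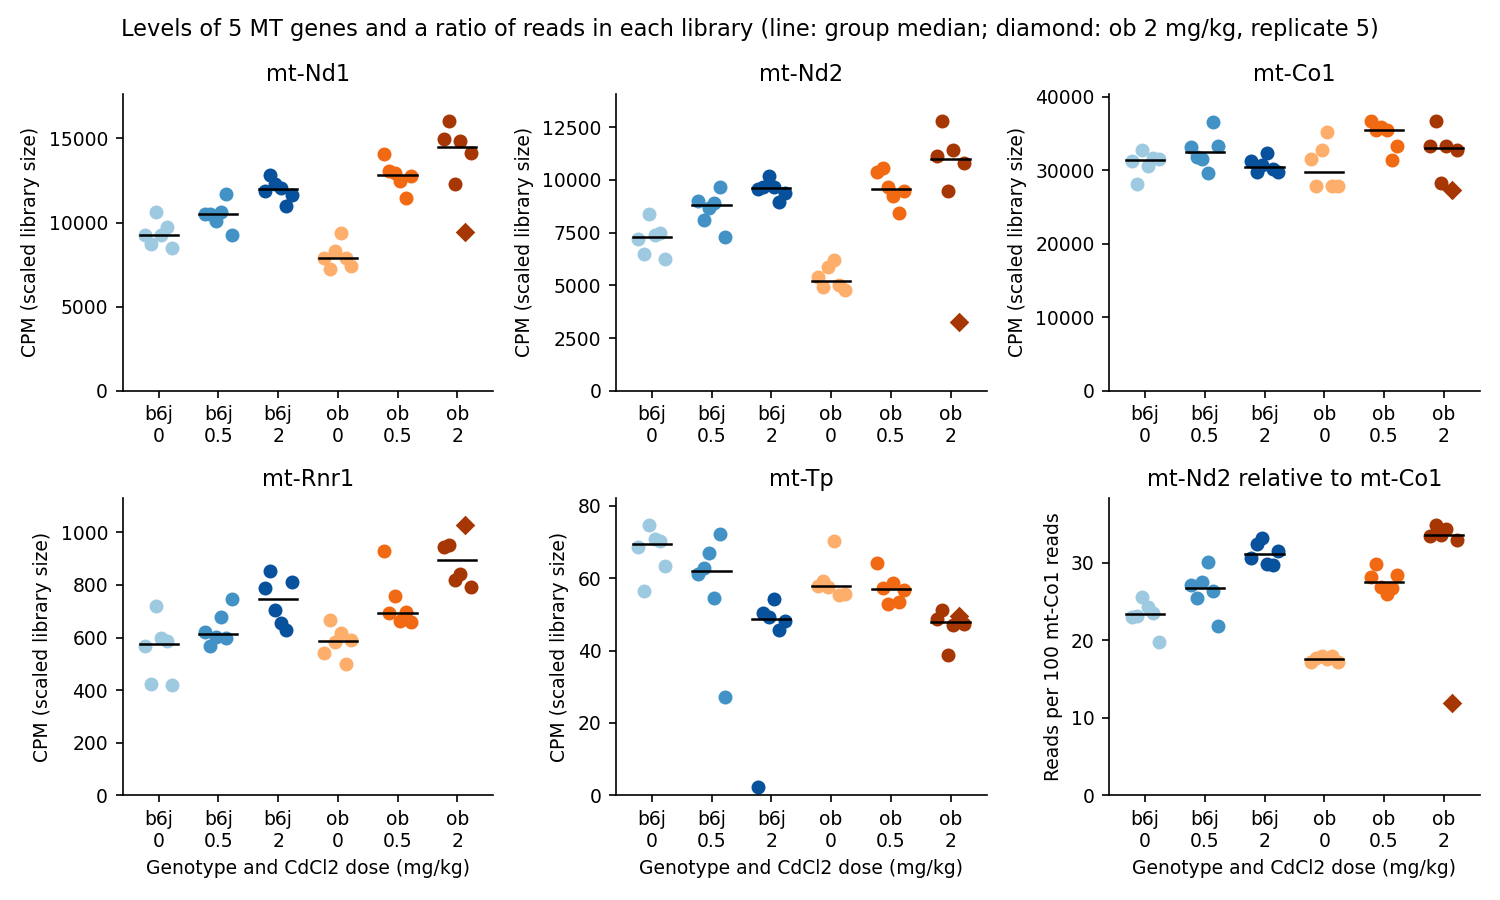
Levels of mt-Nd1, mt-Nd2, mt-Co1, mt-Rnr1 and mt-Tp in CPM and of mt-Nd2 as reads per 100 mt-Co1 reads (vertical axes) for each library (points) by group. mt-Nd1 and mt-Nd2 are higher at both doses in ob apart from 1 library, mt-Co1 overlaps in all groups, and mt-Tp is at 2.35 CPM in 1 b6j library at 2 mg/kg.

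Counted over the 16 members that passed the filter on low counts (13 mRNAs, 2 rRNAs and mt-Tp), 3 were called higher at 0.5 mg/kg, where 3.55% of all genes tested were called higher. Of the 16, 5 (mt-Nd1, mt-Nd2, mt-Nd3, mt-Nd4 and mt-Cytb) were higher without overlap at that dose, where 4.30% of all genes were. At 2 mg/kg 7 of 16 were called higher, where 38.4% of all genes were called and 20.4% were called higher, so calls were also common among all genes at that dose. Fitted on the compared groups alone 3 were called higher and 1, mt-Tp, lower, where 23.2% of all genes were called, and with the joined counts 4 were called higher, where 32.2% were. The 37 members include 21 tRNAs with too few reads to test. The median log2 change of the 13 mRNAs was 0.44 at 0.5 mg/kg and 0.63 at 2 mg/kg (0.77 without replicate 5), beside all-gene medians of -0.01 and 0.01, and 13 of 13 were positive at each dose. Both doses share the same untreated libraries. Without replicate 5, 10 members were called higher at 0.5 mg/kg, where 9.68% of all genes were called, and 11 at 2 mg/kg, where 38.0% were. Leaving out untreated ob replicate 4, the highest untreated library for mt-Nd1, mt-Nd2, mt-Co1, mt-Co2, mt-Co3 and mt-Atp6, gave 5 calls at 0.5 mg/kg. The share of all genes called in that refit was not recorded, so this count has no background beside it. By complex, 4 of 7 complex I mRNAs were called at 2 mg/kg (median 0.77), 1 of 3 of complex IV (0.18), 1 of 2 of complex V (0.67) and 0 of 1 of complex III (0.29). Without replicate 5 these counts were 6 of 7 (0.86), 1 of 3 (0.34), 1 of 2 (0.83) and 1 of 1 (0.45), and whether complexes differ was not tested. No member's direction at either dose changed when libraries were scaled by size alone.

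Few members separated the 2 ob doses. Between 2 and 0.5 mg/kg 1 member was called, mt-Rnr1 with a log2 change of 0.29 ± 0.11 (edgeR adjusted p = 0.0442), where 29.7% of all genes were called. That call was lost without any 1 of ob replicates 2, 3, 4, 5 and 6 at 0.5 mg/kg or replicates 1, 2 and 5 at 2 mg/kg (adjusted p = 0.0585 to 0.0948). It was also lost with the replicate block (0.0569), the joined counts (0.0539), the compared groups alone (0.0744), no filter (0.0723) and limma-voom (0.0802). Without replicate 5 at 2 mg/kg, mt-Nd1, mt-Nd2, mt-Nd3 and mt-Nd4l were called higher at the higher dose in its place. That fit called 27.6% of all genes between these doses, so calls were also common among all genes.

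In b6j kidneys the lower dose gave no call. At 0.5 mg/kg 0 of 16 members were called by edgeR and 0 had an unadjusted p under 0.05 (smallest adjusted p 0.942), where 0.325% of all genes were called. By limma-voom with sample weights 1 was called, where 1.28% of all genes were, and by DESeq2 0, where 0.586% were. The median log2 change of the 13 mRNAs was 0.15, with 13 of 13 positive. mt-Nd1, for example, had 9274, 10507 and 11684 CPM beside 8500, 9247 and 10621 CPM untreated, and the groups overlapped.

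At 2 mg/kg the rRNAs and mt-Nd1 rose in b6j kidneys. mt-Nd1 had 10987, 11970 and 12808 CPM, above all untreated libraries, with a log2 change of 0.35 ± 0.09 (edgeR adjusted p = 0.00346). mt-Rnr1, the small-subunit rRNA, had 419, 576 and 720 CPM untreated and 628, 745 and 854 CPM at 2 mg/kg, with a log2 change of 0.42 ± 0.11 (adjusted p = 0.00438). mt-Rnr2, the large-subunit rRNA, had 515, 679 and 873 CPM and then 761, 954 and 1120 CPM, with a log2 change of 0.51 ± 0.15 (adjusted p = 0.0129). The rRNA groups overlapped at their edges. These 3 of 16 members were called higher where 23.7% of all genes were called and 12.3% were called higher, a share near that of all genes. Without ob replicate 5 at 2 mg/kg, 5 were called, mt-Nd2 and mt-Nd3 added, where 34.8% of all genes were.

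The other members did not pass the test in b6j at 2 mg/kg. mt-Nd2 had 6233, 7288 and 8356 CPM untreated and 8963, 9618 and 10195 CPM at 2 mg/kg, and mt-Nd4l 6.34, 7.96 and 9.38 and then 9.40, 10.2 and 11.7 CPM. Neither overlapped, but log2 changes of 0.41 ± 0.16 (edgeR adjusted p = 0.0584) and 0.40 ± 0.24 (adjusted p = 0.229) missed the threshold. mt-Nd1, mt-Nd2 and mt-Nd4l are thus 3 members higher without overlap, where 8.36% of all genes were. mt-Co1 had 28105, 31354 and 32708 CPM untreated and 29713, 30444 and 32401 CPM at 2 mg/kg. Its log2 value of -0.01 and that of mt-Co3, -0.10, became 0.09 and 0.00 with scaling by library size alone, a setting that moved the median of all genes to 0.12. The values of mt-Atp6 (0.36 ± 0.22), mt-Nd3 (0.47 ± 0.24), mt-Nd5 (0.21 ± 0.13), mt-Cytb (0.14 ± 0.13), mt-Co2 (0.10 ± 0.19), mt-Nd4 (0.07 ± 0.14), mt-Nd6 (0.06 ± 0.16) and mt-Atp8 (0.71 ± 0.31) did not pass. Over the 13 mRNAs the median was 0.21, with 11 positive. Between 2 and 0.5 mg/kg in b6j 0 members were called by edgeR, 1 had an unadjusted p under 0.05, and 17.3% of all genes were called. Limma-voom called 2, where it called 28.5% of all genes.

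**Figure D4:**
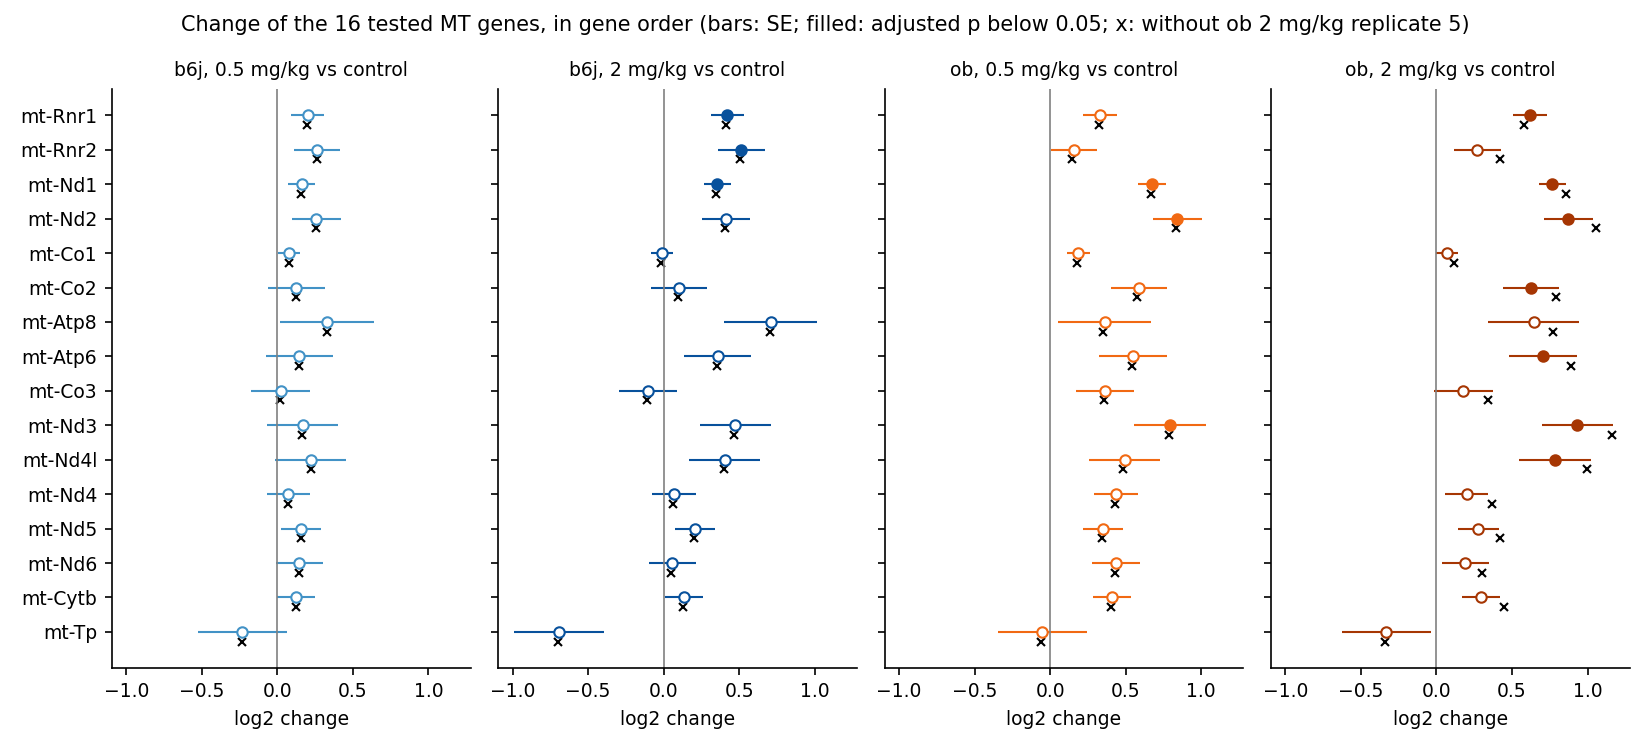
Log2 change (± SE) of each of the 16 members tested, in gene order, for 0.5 and 2 mg/kg against untreated kidneys in b6j and in ob. Filled points passed the edgeR test at an adjusted p below 0.05 and crosses give the value without ob replicate 5 at 2 mg/kg. In ob mt-Nd1, mt-Nd2 and mt-Nd3 are filled at both doses (0.67 to 0.93), and mt-Co1 lies near 0 at 2 mg/kg in both genotypes.

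A ratio of 2 genes within a library does not depend on its depth or scaling. Given here as a description, with no test, mt-Nd2 had 17.1, 17.6 and 18.0 reads (lowest, median and highest library) per 100 mt-Co1 reads in untreated ob kidneys, 26.0, 27.5 and 29.8 at 0.5 mg/kg, and 33.0, 33.5 and 34.9 at 2 mg/kg without replicate 5, which had 11.9. The 3 ob groups did not overlap apart from that library. In b6j the ratio was 19.8, 23.3 and 25.5 untreated, 21.8, 26.8 and 30.1 at 0.5 mg/kg, and 29.8, 31.1 and 33.1 at 2 mg/kg, where only the untreated and 2 mg/kg groups were apart. Untreated ob libraries all lay below untreated b6j libraries.

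mt-Nd1 followed the same order, at 24.9, 26.3 and 28.3 reads per 100 mt-Co1 reads in untreated ob, 35.0, 36.7 and 38.3 at 0.5 mg/kg and 43.2, 43.7 and 44.9 at 2 mg/kg without replicate 5 (34.5). In b6j it was 27.0, 30.4 and 32.5 untreated and 36.5, 38.5 and 43.0 at 2 mg/kg. mt-Cytb had 49.5 to 54.9 reads per 100 mt-Co1 reads in untreated ob, 57.8 to 63.5 at 0.5 mg/kg, 61.2 to 67.4 at 2 mg/kg and 31.3 in replicate 5. So these genes were counted more often relative to mt-Co1 after cadmium, and the share of mt-Co1 in all mitochondrial mRNA reads was 41.5% ± 0.656 (SD, n = 6) in untreated ob, 36.1% ± 0.707 (n = 6) at 0.5 mg/kg and 33.6% ± 0.602 (n = 5) at 2 mg/kg without replicate 5, which had 48.6%. In b6j it was 38.4% ± 1.05, 37.3% ± 2.67 and 34.6% ± 0.831 (n = 6 each). mt-Nd1 took 10.9% ± 0.359, 13.3% ± 0.251 and, without replicate 5, 14.8% ± 0.232 in ob. For the minus-strand mRNA, mt-Nd6 had 9.82 to 23.8 reads per 100 mt-Nd5 reads over all libraries, its overlapping plus-strand neighbour, and every pair of groups overlapped. Counting ignored strand, so antisense reads cannot be told apart here.

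Between the genotypes few members differed. In untreated kidneys 0 of 16 were called by edgeR, 3 (mt-Nd1, mt-Nd2 and mt-Co2) had an unadjusted p under 0.05, and 15.5% of all genes were called. DESeq2 called 2, where it called 18.3% of all genes, and limma-voom 9, where it called 5629 of the 18180 genes tested. mt-Nd2 was lower in all 6 ob libraries (4792 to 6175 CPM) than in all 6 b6j libraries (6233 to 8356 CPM), 1 member where 7.93% of all genes were lower without overlap. Its log2 difference, ob minus b6j, was -0.42 ± 0.16 (edgeR adjusted p = 0.07), and that of mt-Nd1 was -0.22 ± 0.09 (adjusted p = 0.0913). Without ob replicate 5 at 2 mg/kg, mt-Nd1, mt-Nd2, mt-Co2 and mt-Nd3 were called lower, where 26.0% of all genes were called. The median difference of the 13 mRNAs was -0.22, with 1 positive (mt-Atp8). Scaling by library size alone moved the median of all genes to 0.16 and the values of mt-Co1 (-0.02) and mt-Cytb (-0.13) to 0.11 and 0.01.

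mt-Nd1 at 0.5 mg/kg was higher in ob than in b6j by a log2 difference of 0.29 ± 0.09 (edgeR adjusted p = 0.0327), 1 of 16 members where 9.64% of all genes were called. The groups overlapped (11447 to 14056 and 9274 to 11684 CPM). The call was lost without any 1 of ob replicates 1, 2, 3 and 6 or b6j replicates 1, 2, 3, 4 and 6 at that dose. It was also lost when every gene was tested (adjusted p = 0.139) and with a term for the 12 libraries with a shorter joined column (0.0651), which include 4 b6j and 0 ob libraries at that dose. At 2 mg/kg 0 of 16 were called by edgeR, 2 had an unadjusted p under 0.05, and 16.4% of all genes were called. DESeq2 called 1 (19.7% of all genes) and limma-voom 2 (15.6%). Without ob replicate 5 mt-Nd1, mt-Nd2 and mt-Cytb were called higher in ob, where 15.2% of all genes were called.

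The difference between the genotypes in their response was tested as an interaction. At 0.5 mg/kg 0 of 16 members were called by edgeR, 2 had an unadjusted p under 0.05, and 0.385% of all genes were called. DESeq2 called 1 (0.818% of all genes) and limma-voom 5 (4.43%). The response of mt-Nd1 was larger in ob by a log2 value of 0.51 ± 0.13 (adjusted p = 0.0622) and that of mt-Nd2 by 0.58 ± 0.23 (adjusted p = 0.434). At 2 mg/kg 0 were called by edgeR, 1 had an unadjusted p under 0.05, and 2.07% of all genes were called. DESeq2 called 1 (4.89% of all genes) and limma-voom 7 (5.91%). The value of mt-Nd1 was 0.41 ± 0.13 (adjusted p = 0.0788). Leaving out ob replicate 5 at 2 mg/kg gave 2 calls at 0.5 mg/kg (mt-Nd1 and mt-Nd2, where 1.38% of all genes were called) and 4 at 2 mg/kg (mt-Nd1, mt-Nd2, mt-Nd3 and mt-Cytb, where 4.12% were), all larger in ob. Leaving out untreated ob replicate 4 gave 1 call at each dose, and leaving out ob replicate 2 at 2 mg/kg gave 1 at 0.5 mg/kg. For these refits the share of all genes called was not recorded, so the counts cannot be set beside it.

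The rRNAs are parts of the mitochondrial ribosome. mt-Rnr1 had 500, 587 and 667 CPM in untreated ob kidneys, 659, 695 and 929 CPM at 0.5 mg/kg, and 791, 893 and 1027 CPM at 2 mg/kg. All 2 mg/kg libraries lay above the untreated ones, and the log2 change was 0.33 ± 0.11 (edgeR adjusted p = 0.0863) at 0.5 mg/kg and 0.62 ± 0.11 (adjusted p = 3.27e-05) at 2 mg/kg, or 0.58 without replicate 5. With mt-Nd1 it is 1 of 2 members higher without overlap at 2 mg/kg, where 8.39% of all genes were. Without replicate 5 mt-Nd2, mt-Nd3, mt-Nd4l, mt-Nd4, mt-Nd5, mt-Cytb and mt-Atp8 also did not overlap, 9 members in all, where 11.3% of all genes were higher without overlap. mt-Rnr2 had 591, 746 and 918 CPM untreated, 660, 797 and 1071 CPM at 0.5 mg/kg and 433, 961 and 1134 CPM at 2 mg/kg, and was not called (0.27 ± 0.15 at 2 mg/kg, edgeR adjusted p = 0.166), but was called without replicate 5 (0.42, adjusted p = 0.00524). In that library alone mt-Rnr1 was the highest of its group and mt-Rnr2 the lowest, a ratio of mt-Rnr1 to mt-Rnr2 reads of 2.37 against 0.715 to 0.999 in the other 35. Mitochondrial rRNAs carry only very short poly(A) tails, and the labels used here say no more of the library preparation than that it was a standard Illumina protocol. The nuclear RNA Gm26917, which holds sequence like that of ribosomal RNA, was called higher at 2 mg/kg in ob (log2 change 1.45 ± 0.24, and 1.08 without replicate 5). In b6j, where both rRNAs were called higher, it was not called (-0.42 ± 0.24, edgeR adjusted p = 0.217). Its part in the rRNA values was not tested.

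Among the 22 tRNA genes only mt-Tp had reads in number. In 12 tRNAs the count was 0 throughout, and 9 others had 1 to 71 reads summed over the 36 libraries: mt-Tc 71, mt-Tn 51, mt-Te 29, mt-Ts1 24, mt-Tl1 5, mt-Ty 4, mt-Tf 3, mt-Tq 1 and mt-Tl2 1. Of 8 minus-strand tRNAs 7 had a count, 180 reads in all without mt-Tp, and of 14 plus-strand tRNAs 3 had, with 9 reads. mt-Tp had 62336 reads. It lies between mt-Cytb and the control region, in the antisense direction to the nearest mRNA. The tRNA genes have 59 to 75 bases, and a count of 0 for them is a limit of this assay, not a sign of absence.

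mt-Tp had 56.5, 69.6 and 74.7 CPM in untreated b6j kidneys, 27.2, 62.0 and 72.2 CPM at 0.5 mg/kg, and 2.35, 48.8 and 54.3 CPM at 2 mg/kg. In ob it had 55.3, 57.8 and 70.2 CPM, then 52.9, 57.0 and 64.1 CPM, then 38.8, 48.0 and 51.1 CPM. In each genotype all 2 mg/kg libraries lay below all untreated ones, where 8.92% (b6j) and 8.73% (ob) of all genes did so, and in ob they also lay below all 0.5 mg/kg libraries, where 6.56% did. The log2 values of -0.69 ± 0.30 in b6j (edgeR adjusted p = 0.0873) and -0.33 ± 0.29 in ob (adjusted p = 0.394) did not pass the test. Without b6j replicate 1 at 2 mg/kg, both passed it: -0.45 ± 0.13 in b6j (edgeR adjusted p = 0.0129) and -0.33 ± 0.13 in ob (adjusted p = 0.0382), the latter through the shared estimate of spread. With all libraries, limma-voom with sample weights called mt-Tp lower in b6j at 2 mg/kg against untreated and against 0.5 mg/kg. In those comparisons it called 38.2% and 28.5% of all genes. Fitted on the compared groups alone, edgeR called mt-Tp lower in ob at 2 mg/kg against untreated, where 23.2% of all genes were called. One b6j library at 2 mg/kg, replicate 1, had 68 mt-Tp reads and b6j replicate 6 at 0.5 mg/kg had 731, against 1348 to 2481 in every other library.

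Nuclear genes that serve the mitochondrial genome were read from 10 lists. Counts given without replicate 5 in ob at 2 mg/kg come from a fit that called 38.0% of all genes in either direction. In ob kidneys at 2 mg/kg 4 of 9 genes of mitochondrial DNA transcription fell and 0 rose, where 18.0% of all genes were called lower. Tfam, which packages and bends the DNA to start transcription, fell by 0.38 ± 0.06 on the log2 scale (edgeR adjusted p = 4.05e-06), the elongation factor Tefm by 0.55 ± 0.17, Tfb2m by 0.18 ± 0.07 and the ribosome biogenesis factor Mterf3 by 0.21 ± 0.08, the last not without replicate 5 (adjusted p = 0.129). Tfam had 50.6, 52.7 and 56.5 CPM untreated, 42.7, 49.4 and 55.3 CPM at 0.5 mg/kg and 39.4, 40.0 and 43.1 CPM at 2 mg/kg, so that the untreated and 2 mg/kg groups did not overlap. Polrmt, the polymerase, was not called (-0.15, adjusted p = 0.239). At 0.5 mg/kg, where mt-Nd1, mt-Nd2 and mt-Nd3 rose, 0 of the 9 were called.

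Factors that process and stabilise mitochondrial RNA also fell at 2 mg/kg in ob, 11 of 20 tested (9 without replicate 5) with 0 higher and a median log2 change of -0.25, beside 0.01 over all genes, of which 18.0% were called lower. Pnpt1, which degrades and imports RNA, fell by 0.70 ± 0.08 on the log2 scale (edgeR adjusted p = 1.04e-08) and Grsf1, a protein of the mitochondrial RNA granules, by 0.53 ± 0.06 (adjusted p = 1.27e-08). Fastkd1 fell by 0.41 ± 0.08, Ptcd2 by 0.31 ± 0.07, and Lrpprc, which stabilises mitochondrial mRNAs, by 0.37 ± 0.09. Pnpt1 alone of this list was called at 0.5 mg/kg (-0.41). In the modification list 7 of 20 fell and 2 rose (9 and 1 without replicate 5), led by Gtpbp3 at -1.14 ± 0.16, a tRNA-modifying enzyme.

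Genes of mitochondrial translation were called lower more than higher in ob at 2 mg/kg. Of 77 mitochondrial ribosomal proteins tested 27 fell and 5 rose (27 and 3 without replicate 5), with a median log2 change of -0.13, where 18.0% of all genes were called lower and 20.4% higher. Mrpl23 fell by 1.12 ± 0.10 on the log2 scale (edgeR adjusted p = 1.31e-10), Mrps5 by 0.52 ± 0.08 and Mrpl48 by 0.48 ± 0.08. Of 23 genes for aminoacyl-tRNA supply 15 fell and 3 rose, among them Gatb at -1.13 ± 0.16, Sars2 at -0.54 ± 0.09 and Gars, which also serves the cytosol, at 0.52 ± 0.09. Of 13 translation factors 7 fell and 0 rose (6 and 0 without replicate 5), Mtif3 by 0.40 ± 0.09 and Mtrf1 by 0.56 ± 0.13 on the log2 scale.

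Among nuclear subunits that assemble with the mitochondrial ones, 19 of 32 were called lower and 2 higher in ob at 2 mg/kg (18 and 2 without replicate 5), where 18.0% of all genes were called lower and 20.4% higher, with a median of -0.24 beside 0.63 for the 13 mitochondrial mRNAs. Uqcrc2 and Uqcrb, partners of mt-Cytb in complex III, fell by 0.46 ± 0.08 and 0.34 ± 0.06 on the log2 scale, and Ndufa9, a complex I subunit, by 0.41 ± 0.07. Of the 32, 1 rose at 0.5 mg/kg, Cox6a1 (0.36), and 0 fell. Genes of mitochondrial DNA replication (4 of 12 lower, 0 higher), regulators of biogenesis (5 lower and 1 higher of 12) and mitophagy and dynamics (3 of 12 lower, 0 higher) included Mgme1 at -0.80 ± 0.13, Top1mt at -0.91 ± 0.15, Sirt3 at -0.56 ± 0.12, Pprc1 at 0.42 ± 0.13 and Pink1 at -0.57 ± 0.11. The mitophagy count is close to the share of all genes called lower. Ppargc1a, the biogenesis coactivator, was not called (-0.29, edgeR adjusted p = 0.0518). Proximal tubule markers were lower in the same libraries, as given above, and their part in these counts was not tested.

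In b6j kidneys at 2 mg/kg the respiratory partners and ribosomal proteins were the lists with most calls. Of the partners 26 of 32 fell and 0 rose (32 and 0 without ob replicate 5), with a median of -0.34, where 11.4% of all genes were called lower. Without ob replicate 5, 34.8% of all genes were called in either direction. Among the partners that fell were Cox7a2, a partner of mt-Co1 in complex IV, at -0.61 ± 0.07 (edgeR adjusted p = 2.23e-08) and Uqcrb at -0.42 ± 0.06. Of the mitochondrial ribosomal proteins 49 of 77 fell and 1 rose (59 and 1), with Mrpl23 at -0.92 ± 0.10. In the other lists 9 of 23 aminoacyl-tRNA genes (14 without ob replicate 5) and 8 of 20 processing factors (10) fell, and 0 rose. Called lower were also 2 of 13 translation factors (7), 3 of 20 modification genes (7) and 1 of 9 transcription genes (4), and 0 rose. With all libraries the translation factor, modification and transcription counts are close to the share of all genes called lower, 11.4%. Tfam fell by 0.19 ± 0.06 on the log2 scale (adjusted p = 0.0176), Grsf1 by 0.32 ± 0.06 and Lrpprc by 0.31 ± 0.09, while Polrmt (-0.12, adjusted p = 0.432) was not called and Ppargc1a had a value of 0.02. With scaling by library size alone the counts in b6j were smaller, 23 of 32 partners and 29 of 77 ribosomal proteins lower, with medians of -0.24 and -0.15. Under that scaling 26.0% of all genes were called and 19.0% were called higher, beside 23.7% and 12.3% in the main fit. In b6j at 0.5 mg/kg 1 gene of the 10 lists was called, Cox7a2, which was lower (-0.32). The medians of the biogenesis and mitophagy lists in b6j at 2 mg/kg changed sign or reached 0 under scaling by library size alone, and no direction is given for them.

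**Figure D5:**
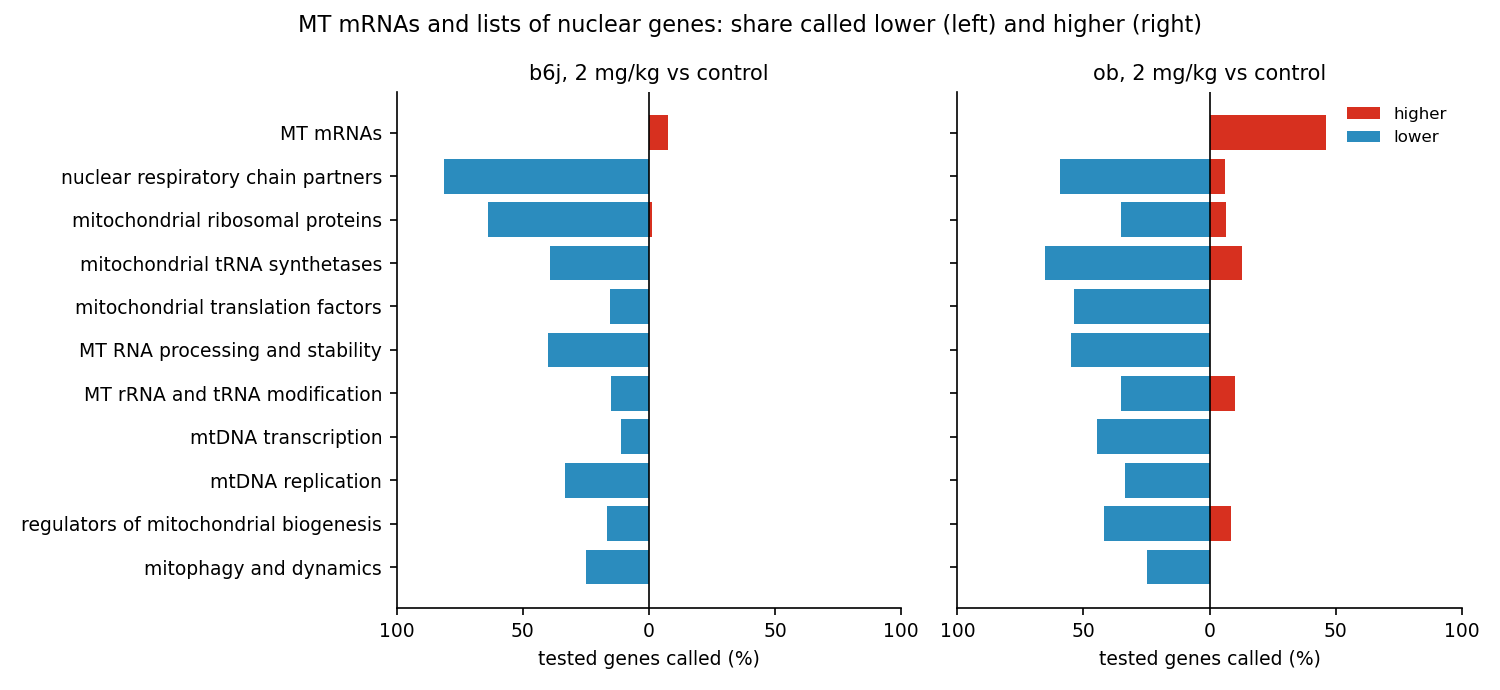
Percent of tested genes called higher (right) and lower (left) at 2 mg/kg against untreated kidneys in b6j and ob, for the mitochondrial mRNAs and 10 lists of nuclear genes. Of the mitochondrial mRNAs 1 of 13 (b6j) and 6 of 13 (ob) were called higher and 0 lower, where 12.3% and 20.4% of all genes were called higher. Among nuclear partners 26 of 32 (b6j) and 19 of 32 (ob) were called lower, where 11.4% and 18.0% of all genes were.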

How the data were processed

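The files hold whole-number counts per gene for each of 36 kidney libraries, deposited by the authors and made with featureCounts 1.4.6-p2 on the Ensembl 96 annotation, per the file headers. The header command sets no strand option and neither option that keeps multi-mapping or multi-overlap reads. The submitters' processing notes name bcl2fastq, Trimmomatic, FastQC, STAR and GRCm38. A joined table of deposited counts matches 24 libraries and holds fewer reads in 12, so the per-library files were used.

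Counts were scaled by TMM and tested with edgeR 4.0.16 (quasi-likelihood, R 4.3.3), in 1 model over the 6 groups, after filterByExpr kept 18180 of 55536 genes, with Benjamini-Hochberg adjustment over them within each of 11 comparisons and a threshold of 0.05. A standard error is the log2 change divided by the root of F. The script was tested on simulated data. Nuclear copies were found with BLAST 2.17.0. Alternatives were DESeq2 1.42.0, limma-voom (limma 3.58.1) with sample weights, other scalings and filters, a replicate block, copies added, and each library left out. The joined counts and a term for its 12 shorter libraries were added after seeing the data. Named are all mRNAs and rRNAs, mt-Tp and other tRNAs with reads, up to 4 called genes per nuclear list with the smallest p, Tfam, Polrmt, Lrpprc and Ppargc1a, and copies with a mean count above 100; Gm26917 was named after its values were seen. The members and lists were chosen with earlier results of these data known.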

Additional observations from a re-analysis of the deposited data

Results flagged for a closer look

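In 13 of 102 groups of 6 libraries tested, 1 library lay far from the rest on Dixon's criterion, which chance alone exceeds in about 1 group in 20. Of these, 6 are ob replicate 5 at 2 mg/kg, the lowest of its group for mt-Rnr2 (433.1 CPM, next 904.7), mt-Nd2 (3240 CPM, next 9486), mt-Nd4 (3018 CPM, next 7478), mt-Nd5 (3805 CPM, next 7626), mt-Nd6 (739.7 CPM, next 1193) and mt-Cytb (8547 CPM, next 19040). This is the library whose proximal tubule markers summed to 2039 CPM, and the part of that in these values was not tested.

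b6j replicate 6 at 0.5 mg/kg was the lowest of its group for mt-Nd4l (4.883 CPM, next 8.914) and mt-Nd4 (5434 CPM, next 7764). Untreated ob replicate 4 was the highest for mt-Nd6 (1562 CPM, next 1059) and mt-Tp (70.23 CPM, next 59.23). mt-Tp was lowest in b6j replicate 1 at 2 mg/kg (2.347 CPM, next 45.58) and in ob replicate 3 at 2 mg/kg (38.84 CPM, next 47.22). mt-Rnr1 was highest in ob replicate 1 at 0.5 mg/kg (929.3 CPM, next 756.6).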

How the results depend on the processing

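No called member changed direction under the alternatives run. Counts of the 16 members called changed as follows, and the cause was not tested. The percent of all genes called is given in parentheses. Limma-voom gave ob replicate 5 at 2 mg/kg a weight of 0.0332. It called 13 in ob at 0.5 mg/kg (12.9%), 13 at 2 mg/kg (38.6%) and 3 between those doses (26.1%). In b6j it called 1 at 0.5 mg/kg (1.28%), 8 at 2 mg/kg (38.2%) and 2 between them (28.5%). Between untreated genotypes it called 9 (5629 of the 18180 genes tested), and between genotypes at 2 mg/kg 2 (15.6%). For the interactions limma-voom called 5 at 0.5 mg/kg (4.43%) and 7 at 2 mg/kg (5.91%). DESeq2 called 6 in ob at 0.5 mg/kg (5.45%), 2 between untreated genotypes (18.3%), both lower in ob, and 1 between genotypes at 2 mg/kg (19.7%). It called 1 for each interaction (0.818% at 0.5 mg/kg and 4.89% at 2 mg/kg). Fitting only the compared groups gave 8 in ob at 0.5 mg/kg (11.8%), 4 at 2 mg/kg, 1 of them lower (23.2%), and 0 between those doses (11.4%). It gave 8 in b6j at 2 mg/kg (36.7%) and 4 between b6j doses (26.5%). Between untreated genotypes it gave 3, all lower in ob (30.6%), and for the interaction at 0.5 mg/kg 2 (1.86%). Library size alone gave 5 in b6j at 2 mg/kg (26.0%), 2 between b6j doses (19.3%) and 1 between genotypes at 2 mg/kg (16.7%). Testing every gene gave 0 between genotypes at 0.5 mg/kg (3.79%) and 0 between ob doses (13.7%), and the stricter filter gave 1 between genotypes at 2 mg/kg (22.2%). Adding the copies gave 4 in ob at 0.5 mg/kg (780 of 18168 genes). The joined counts gave 4 in ob at 2 mg/kg (32.2%) and 0 between ob doses (23.9%), and the term for its 12 shorter libraries gave 0 between genotypes at 0.5 mg/kg (6.69%).

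With each library left out in turn, calls ranged from 2 to 10 in ob at 0.5 mg/kg, 7 to 11 at 2 mg/kg and 0 to 4 between ob doses. They ranged from 0 to 0, 3 to 5 and 0 to 1 for the same b6j comparisons. The ranges were 0 to 4, 0 to 1 and 0 to 3 between genotypes by rising dose, and 0 to 2 and 0 to 4 for the interactions. Each highest count was reached without ob replicate 5 at 2 mg/kg. That fit called 9.68%, 38.0% and 27.6% of all genes for the ob comparisons in that order, and 0.854%, 34.8% and 28.7% for b6j. It called 26.0%, 19.2% and 15.2% between genotypes and 1.38% and 4.12% for the interactions. For the other refits the share of all genes was not recorded. With each library left out, mean mitochondrial shares moved within 7.69% to 7.95% (untreated b6j), 8.31% to 8.75%, 9.17% to 9.34%, 7.59% to 7.96% (untreated ob), 9.44% to 9.73% and 9.44% to 10.5%.

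Replicate numbers do not pair the libraries (median correlation 0.0085 over 90 same-number pairs, 5 above 0.1). With the replicate block 7 members were called in ob at 2 mg/kg (37.2% of all genes) and 3 at 0.5 mg/kg (4.10%). Between ob doses 0 were called (27.7%), and in b6j at 2 mg/kg 3 (22.9%). Depth limits mt-Atp8 and the tRNAs other than mt-Tp.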
